A study of Mus musculus with 50 samples.

Results

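Perigonadal white adipose tissue (pgWAT, the visceral fat depot beside the testis and epididymis) was compared between Cre-positive and Cre-negative mice 1 h after clozapine N-oxide (CNO). The comparison used 18 of the 50 libraries of the series, 9 of each genotype, chosen by their titles alone. All were from hM3DGq male mice, whose engineered receptor lets CNO activate the cells in which Cre recombinase has acted, and all received CNO at 1 mg/kg. TG mice carried Gfral Cre and WT mice did not. Because both genotypes carried the receptor transgene and received CNO, and no mice without CNO were sequenced, the contrast is TG against WT after CNO. The labels give neither the ages of the mice nor whether each library was 1 animal, so the p-values measure only the spread between these libraries. The other libraries of the series, 12 of pgWAT at 6 h and 20 of quadriceps from clamped mice, are set beside the 1 h values for named genes only. The labels of quadriceps TG library 10 conflict, with 1 h in the treatment entry and a clamp in the title, and it was grouped by its title.

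Gfral is the receptor of GDF15, a hormone released by stressed tissues that reduces appetite and causes nausea, and it is made by neurons of the hindbrain. Fat does not make the receptor, so signals from those neurons reach it through nerves or the circulation. White adipocytes store triglyceride, release it by lipolysis when catecholamines act on them, and take up glucose through the insulin-regulated transporter Slc2a4. Their transcription also responds to glucocorticoids, cAMP and FOXO factors, and genes differ in how long their mRNA takes to accumulate.

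The libraries held 976610 to 4852560 counts in gene rows, and levels below are CPM relative to the TMM-scaled total of the tested genes. Relative to the unscaled total of all gene rows, 3 counts corresponded to 0.618 to 3.07 CPM. The tissue label was checked against 14 adipocyte markers, all of which passed the count filter. Their summed level ran from 17114 CPM in WT library 9 to 39429 CPM in TG library 2, and Ucp1, the marker of thermogenic fat, had 7 counts in all 18 libraries. Gfral had 1 count, so it gave no check of the genotype labels in this tissue. Levels of 1 gene in whole tissue do not tell a change in the number of cells of a type from a change in RNA per cell.

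In fat 1 h after CNO, 6 genes were higher and 2 lower in TG than in WT. The lower genes were Txnl1 and Wdr7. The higher genes were Ddit4, Gadd45g and Depp1, which code for proteins, and the non-coding models 4632418H02Rik, Gm47121 and Gm44829. Changes ran from 0.85 to 1.21 on the log2 scale among the higher genes, and every TG library lay on the called side of the WT mean for each of the 8. These 8 were 0.0722% of 11087 tested genes (edgeR quasi-likelihood test, Benjamini-Hochberg adjusted p under 0.05), with 0.0541% called higher and 0.018% called lower. At an unadjusted p under 0.05 there were 512 genes (4.62%), 268 higher (2.42%) and 244 lower (2.2%). DESeq2 called 23 genes of 14237 (0.162%), 15 higher and 8 lower, among them all 8. Of its 8 lower calls, Asgr1, Cyp2c29 and Ahsg are liver transcripts. The 5 libraries high in liver transcripts, named further on, held 92.7%, 95.9% and 94.4% of their counts. TG library 3 alone held 378 of 654, 488 of 712 and 1871 of 2916. Although DESeq2 called them lower, their total counts were higher in TG (393, 491 and 1928) than in WT (261, 221 and 988). Ahsg was at -2.26 in DESeq2 and at 1.11 in edgeR, and the cause of this difference was not tested. The log2 change was above 0 in 5839 genes (52.7%), and its median over all tested genes was 0.01. The median half-width of a gene's 95% interval was 0.30, or 0.22 for the 4404 genes at 50 CPM or more. These intervals are not adjusted for the number of genes, so differences of this size or smaller were mostly not detectable here. The smallest change called was 0.85, and the gene Stim1 at 0.46 did not pass (edgeR adjusted p = 0.0668). Larger changes were not always called either. In 33 genes the log2 change was 1 or more in either direction, and most of these did not pass, among them Egr1 at 1.23 (edgeR adjusted p = 0.0958).

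**Figure D1:**
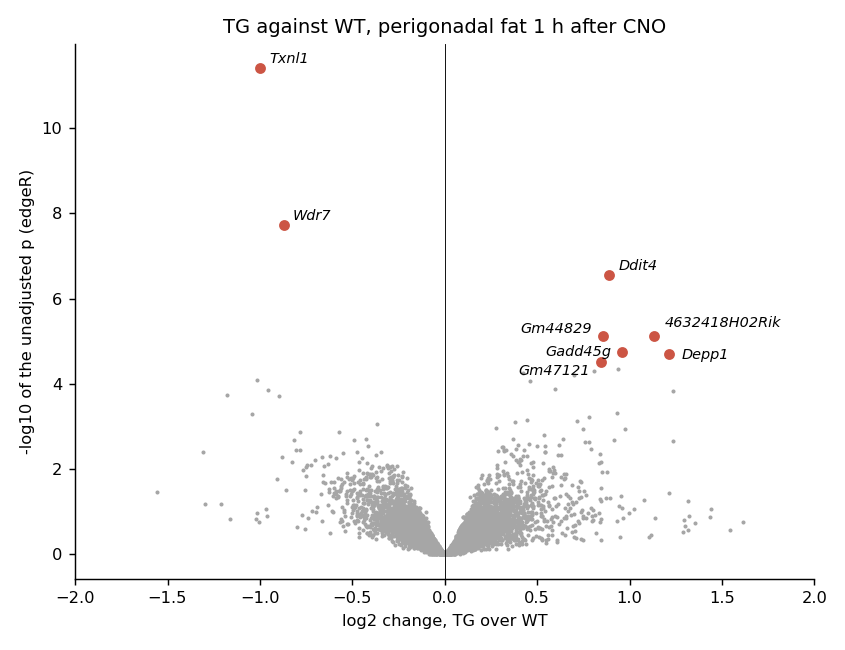
Each point is 1 of the 11087 tested genes, with its log2 change (TG over WT) against the -log10 of its unadjusted edgeR p. The 8 genes with an adjusted p under 0.05 are red and named, and Txnl1 and Wdr7 on the left have the smallest p-values, followed by Ddit4.

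Txnl1 encodes a thioredoxin-like protein associated with the proteasome. It ran from 104 to 120 CPM in WT (median 114) and from 47.8 to 64.4 CPM in TG (median 58.1). All 9 TG libraries lay below all 9 WT libraries. It fell by 1.00 on the log2 scale (SE 0.08, 95% interval -1.16 to -0.84, edgeR adjusted p = 4.44e-08). Wdr7, a partner of the proton pump of intracellular vesicles, ran from 33.8 to 49.4 CPM in WT (median 42.3) and from 19.5 to 28.6 CPM in TG (median 22.2), again without overlap. It fell by 0.87 (SE 0.10, edgeR adjusted p = 0.000106).

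Txnl1 and Wdr7 are next to each other, with no other tested gene between them. Of the 20 tested genes nearest to Txnl1, 10 on each side, Wdr7 was the 1 gene called and the 1 gene with an unadjusted p under 0.05. The other 19 ran from -0.47 to 0.47. Both genes also differed in the other sets, where 2071 of 14359 genes (14.4%, fat at 6 h) and 164 of 8070 (2.03%, quadriceps) were called. In fat at 6 h Txnl1 fell by 0.81 (SE 0.07, edgeR adjusted p = 2.54e-07) and Wdr7 by 1.03 (SE 0.11, 7.08e-06), and in quadriceps they fell by 0.90 (SE 0.08, 4.21e-10) and 1.04 (SE 0.14, 4.83e-06). The test of the difference between 1 h and 6 h gave -0.19 for Txnl1 (edgeR adjusted p = 0.359) and 0.16 for Wdr7 (0.713). Since no mice without CNO were sequenced, a difference in DNA at this locus between the TG and WT mice and a response to CNO cannot be told apart for these genes. Across the whole genome, 4 tested genes had groups of 9 that did not overlap (0.0361%). These were Txnl1 and Wdr7 on the lower side and, on the higher side, Gm44829 and mt-Tt, a mitochondrial transfer RNA that did not pass (log2 change 0.81, edgeR adjusted p = 0.0540).

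**Figure D2:**
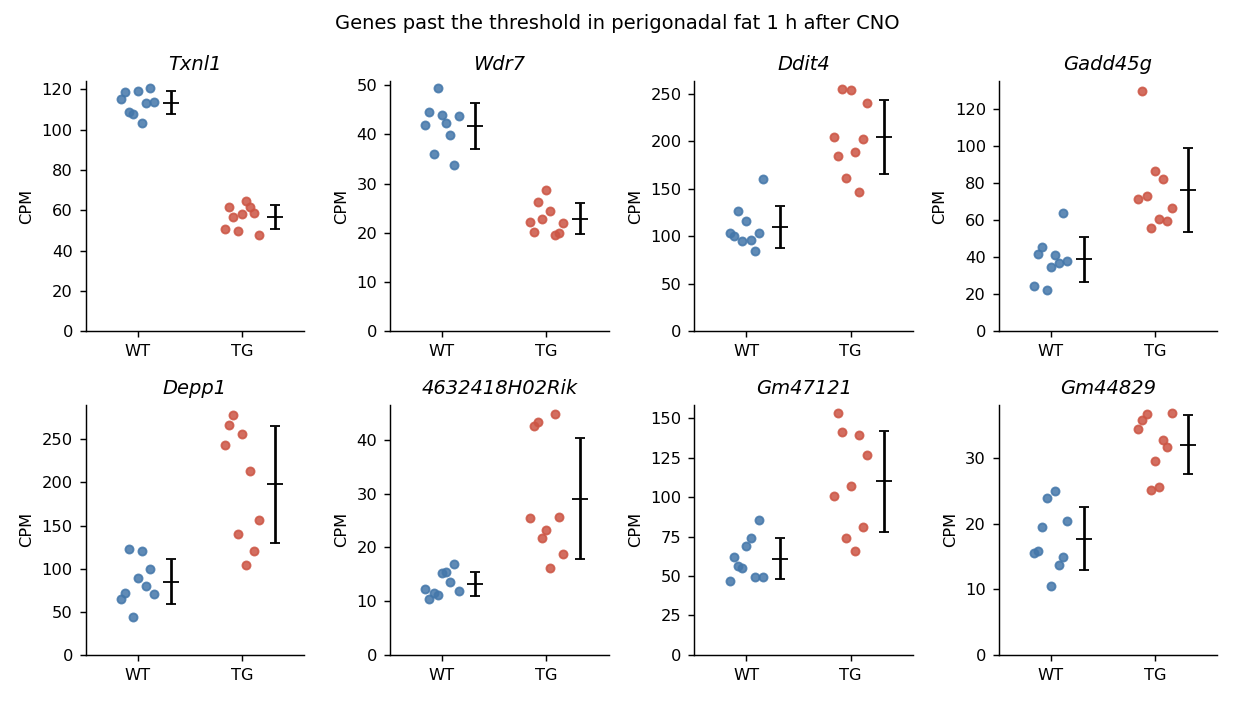
CPM of the 8 called genes in each library (points, 9 WT in blue and 9 TG in red), with the mean and SD beside each group on axes that start at 0. Txnl1, Wdr7 and Gm44829 show groups that do not overlap, and the 3 TG libraries highest in 4632418H02Rik stand apart from the other 6.

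Ddit4 encodes an inhibitor of the growth kinase mTORC1 that is induced by glucocorticoids, hypoxia and fasting. It ran from 84.8 to 160 CPM in WT (median 103) and from 146 to 255 CPM in TG (median 202). Of the TG libraries, 8 lay above every WT library. Ddit4 rose 1.85-fold (log2 change 0.89, SE 0.12, 95% interval 0.63 to 1.15, edgeR adjusted p = 0.00103). Gadd45g, a small protein of the stress response linked to p38 and JNK signalling, ran from 22.4 to 63.6 CPM in WT (median 37.9) and from 55.9 to 130 CPM in TG (median 71.5), with 6 TG libraries above every WT library. It rose 1.94-fold (log2 change 0.96, SE 0.18, edgeR adjusted p = 0.0309). Depp1, a FOXO target known as decidual protein induced by progesterone, ran from 44.1 to 122 CPM in WT (median 79.9) and from 104 to 278 CPM in TG (median 213), with 7 TG libraries above every WT library. It rose 2.32-fold (log2 change 1.21, SE 0.22, edgeR adjusted p = 0.0309). Of these 3 genes Depp1 had the widest spread among TG libraries, with an SD of 67.8 CPM around a mean of 198 CPM.

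The sequences of the 250 bases before the start sites of Ddit4, Gadd45g and Depp1 are shown because these were the protein-coding genes that rose. They are RefSeq sequences on GRCm38.p6, at chr10:59951771-59952020 (minus strand), chr13:51846425-51846674 (plus strand) and chr6:116650434-116650683 (plus strand). Each was searched on both strands for a FOXO motif (GTAAACA), a CRE (TGACGTCA), a glucocorticoid receptor motif (ACANNNTGT), an E-box (CACGTG) and a TATA box (TATAAA). The last search was for the CCAAT box, which reads ATTGG where it lies on the other strand. Matches are in capitals.
Ddit4: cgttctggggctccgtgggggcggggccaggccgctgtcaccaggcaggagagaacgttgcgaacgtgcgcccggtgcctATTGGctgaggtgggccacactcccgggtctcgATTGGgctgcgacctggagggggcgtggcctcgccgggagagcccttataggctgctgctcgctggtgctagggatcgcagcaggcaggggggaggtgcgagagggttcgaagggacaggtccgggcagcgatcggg
Gadd45g: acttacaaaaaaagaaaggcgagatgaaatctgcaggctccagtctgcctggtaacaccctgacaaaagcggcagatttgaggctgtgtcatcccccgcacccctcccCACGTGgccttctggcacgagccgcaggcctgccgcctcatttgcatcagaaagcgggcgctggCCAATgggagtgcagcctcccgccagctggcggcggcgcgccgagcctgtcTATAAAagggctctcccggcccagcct
Depp1: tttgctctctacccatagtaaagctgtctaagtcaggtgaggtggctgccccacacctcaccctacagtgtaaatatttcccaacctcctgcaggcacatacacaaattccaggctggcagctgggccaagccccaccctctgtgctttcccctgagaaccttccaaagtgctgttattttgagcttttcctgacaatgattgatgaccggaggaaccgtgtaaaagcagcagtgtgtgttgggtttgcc

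The Ddit4 stretch held CCAAT boxes starting 170 and 137 bases before the start site. The Gadd45g stretch held an E-box at 142, a CCAAT box at 78 and a TATA box at 27 bases before it. No searched motif was in the Depp1 stretch, and the FOXO, CRE and glucocorticoid receptor letters were in none of these 3 windows. Of 32851 RefSeq promoters of this length, 33.9% held a CCAAT box, 12.4% a TATA box, 6.02% an E-box, 5.84% the glucocorticoid receptor motif, 3.17% the FOXO motif and 1.55% the CRE. A match is only a match of letters, and enhancers outside these windows were not searched.

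The 3 protein-coding genes that rose at 1 h were also higher in TG fat at 6 h. Ddit4 was higher by 2.44 (SE 0.24, edgeR adjusted p = 3.53e-05), Gadd45g by 2.36 (SE 0.30, 0.000307) and Depp1 by 1.84 (SE 0.36, 0.00575), all as log2 changes. Ddit4 and Gadd45g differed less between genotypes at 1 h than at 6 h, by -1.55 (SE 0.24, edgeR adjusted p of the interaction 7.97e-05) and -1.40 (SE 0.32, 0.00824). For Depp1 the interaction was -0.63 (SE 0.40) and did not pass (0.502). Over all genes 548 of 13022 passed this interaction test (4.21%). The 1 h and 6 h libraries were made with different kits and sequenced as different sets, so time and kit cannot be told apart in it. In quadriceps Ddit4 rose by 0.49 (SE 0.10, 0.00395) and Gadd45g by 0.46 (SE 0.12, 0.0313), while Depp1 was at -0.25 (SE 0.18) and did not pass (0.698).

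Of the non-coding models that rose, 4632418H02Rik and Gm47121 lie within Snrk, on its strand, at 122127294 to 122130014 and 122142449 to 122143708 of chromosome 9 (GENCODE vM21, GRCm38). Snrk encodes a kinase related to AMPK. 4632418H02Rik ran from 10.3 to 16.9 CPM in WT (median 12.3) and from 16.1 to 44.8 CPM in TG (median 25.5), and rose by 1.13 (SE 0.20, edgeR adjusted p = 0.0172). Gm47121 ran from 46.8 to 85.3 CPM in WT (median 56.6) and from 66.1 to 153 CPM in TG (median 107), and rose by 0.85 (SE 0.16, 0.0431). Snrk itself ran from 85.9 to 141 CPM in WT (median 112) and from 83.8 to 140 CPM in TG (median 120), a log2 difference of 0.04 (95% interval -0.17 to 0.26, edgeR adjusted p = 1.00). The models and their host thus differed in what they showed at 1 h. At 6 h all 3 were higher in TG, 4632418H02Rik by 1.15 (SE 0.17), Gm47121 by 1.02 (SE 0.14) and Snrk by 1.19 (SE 0.10). The interaction of genotype and time was -1.15 for Snrk (SE 0.16, edgeR adjusted p = 9.54e-06), against -0.02 and -0.18 for the models within it (0.995 and 0.802).

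Fkbp5, a co-chaperone of the glucocorticoid receptor and a widely used target gene of it, showed a related pair of values. AC154912.3, a model at 28457484 to 28461095 of chromosome 17 within Fkbp5 and on its strand, ran from 24.8 to 78.4 CPM in WT (median 49.0) and from 63.9 to 115 CPM in TG (median 91.2), with 7 TG libraries above every WT library. Its log2 change of 0.94 (SE 0.18) did not pass in edgeR (adjusted p = 0.0540) and passed in DESeq2 (0.00209). Fkbp5 ran from 48.4 to 109 CPM in WT (median 58.3) and from 47.4 to 117 CPM in TG (median 83.9), at 0.35 (95% interval -0.01 to 0.70, edgeR adjusted p = 1.00). At 6 h the model was higher in TG by 3.03 (SE 0.32, edgeR adjusted p = 9.08e-05) and Fkbp5 by 3.08 (SE 0.14, 3.97e-09). AC154912.3 was picked for its value.

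**Figure D3:**
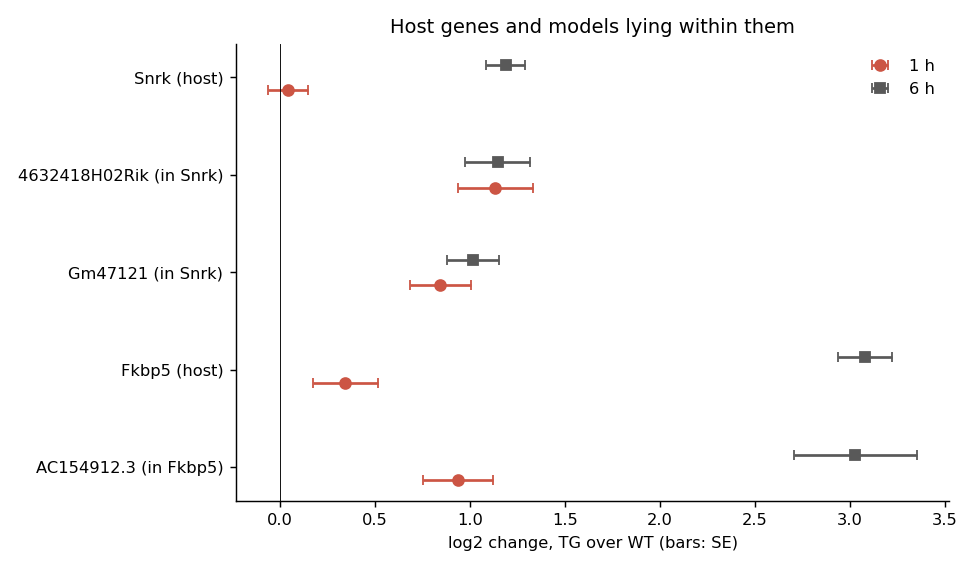
Log2 change (TG over WT, bars are SE) at 1 h (red circles) and 6 h (grey squares) for Snrk and Fkbp5 and for the models lying within them. Snrk sits at 0.04 and Fkbp5 at 0.35 at 1 h, while the 3 models sit between 0.85 and 1.13.

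Among all tested non-coding models, 249 lay within a protein-coding gene on its strand. Of these 2 were called, against 0.0722% of all tested genes. At an unadjusted p under 0.05, 30 were higher (12.0%) and 9 lower (3.61%), against 2.42% and 2.2% of all tested genes. The log2 change was above 0 in 169 of the models, with a median of 0.15 against 0.01 over all tested genes. Their 195 tested hosts had a median of 0.06, with 10 higher and 1 lower at an unadjusted p under 0.05. The 32 models within a gene on the opposite strand only had a median of 0.03, with 1 higher and 1 lower at an unadjusted p under 0.05. The 254 that lay in no protein-coding gene had a median of -0.03, with 8 higher (3.15%) and 13 lower (5.12%). The share of lower same-strand models was thus below that of models in no protein-coding gene. The summed level of the same-strand models ran from 2697 to 3869 CPM in WT and from 3423 to 4001 CPM in TG. Of the 34 hosts with 2 or more of these models, all models were above 0 in 17, all below 0 in 6 and split in 11. Examples above 0, none passing the test, were the models in Mgll (Gm44005 0.54, Gm43999 0.58, Gm44001 0.37), in Picalm (Gm45221 0.84, Gm45223 0.52, Gm45220 0.36) and in Tcf12 (A430027C01Rik 0.71, Gm37879 0.59), while Mgll was at -0.04, Picalm at 0.02 and Tcf12 at 0.10. Examples below 0 were the models in Rc3h1 (Gm37653 -0.51, Gm37052 -0.27) and Itpkb (Gm37033 -0.22, Gm37390 -0.25), whose hosts were at -0.14 and -0.32. Mgll encodes the lipase of the last step of lipolysis. The grouping was made after the values were seen. Which reads count for a model and which for its host depends on the counting program, which no source names, so these rows are uncertain. The part of the counting in these values was not tested.

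Gm44829 lies within Snhg14, a long non-coding host of small nucleolar RNAs, on the opposite strand. It ran from 10.5 to 24.997 CPM in WT (median 15.9) and from 25.09 to 36.8 CPM in TG (median 32.8), with no overlap, and rose by 0.86 (SE 0.15, edgeR adjusted p = 0.0172). Snhg14 was at 0.22 and did not pass. At 6 h Gm44829 was at 0.05 (SE 0.14, edgeR adjusted p = 0.859), and the interaction was 0.80 (SE 0.22, 0.0235).

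Of 28 glucocorticoid-induced genes, 23 were tested, 1 was called higher (Ddit4) and none lower. Their median log2 change was 0.27, and 21 were above 0. At an unadjusted p under 0.05, 6 were higher and 1 lower, against 2.42% and 2.2% of all tested genes. Beside Ddit4 those higher were Errfi1, an inhibitor of the EGF receptor (0.97), the MAP kinase phosphatase Dusp1 (0.75), the kinase Sgk1 (0.54), the NF-kB inhibitor Nfkbia (0.48) and the mRNA decay factor Zfp36 (0.48). The lower member was Gadd45b, at -0.53 and 5.27 CPM in TG. Dusp1 ran from 74.3 to 203 CPM in WT and from 127 to 354 CPM in TG, with overlap (edgeR adjusted p = 0.437). At 6 h the same list had a median of 1.12, with 17 members called higher and 1 lower, where 14.4% of all genes were called in either direction. Members near 0 at 1 h and higher at 6 h were Tsc22d3, which mediates glucocorticoid effects on immune cells (0.07 and 1.68), Cdkn1a, a cell cycle inhibitor (0.04 and 2.07), and Mertk, a receptor for dying cells (0.03 and 1.36), picked for their values. Their interaction with time was -1.61, -2.03 and -1.33 (edgeR adjusted p = 1.15e-08, 0.000800 and 1.05e-08). For the transcription factors Zbtb16 (0.31 and 1.69) and Cebpd (0.38 and 2.02) and for Fkbp5 the interaction was -1.38, -1.63 and -2.73 (edgeR adjusted p = 0.000151, 0.000425 and 3.51e-09).

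Of 30 immediate early genes, which respond within minutes to growth factors and neural signals, 22 were tested and none was called by edgeR. Their median was 0.21, and 17 were above 0. At an unadjusted p under 0.05, 5 were higher and none lower, against 2.42% and 2.2% of all tested genes. Gene lists can share members, so this count and that of the glucocorticoid-induced list need not rest on different genes. Egr1, a zinc finger transcription factor, ran from 30.1 to 137 CPM in WT (median 56.6) and from 87.8 to 242 CPM in TG (median 130). The groups overlapped, with 4 TG libraries above every WT library. Its log2 change was 1.23 (SE 0.26, edgeR adjusted p = 0.0958), and it passed in DESeq2 (0.00287). Its interaction with time was 1.96 (SE 0.53, edgeR adjusted p = 0.0290), with -0.72 at 6 h. Ier2 was at 0.92, from a mean of 6.12 to 11.4 CPM, and Zfp36l1, another mRNA decay factor, at 0.40. Fos was at 0.25 (SE 0.35), Junb at -0.04 and Atf3 at -0.22. The median at 6 h was -0.17.

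Of 23 tested FOXO and fasting targets 2 were called, Ddit4 and Depp1, against 0.0722% of all tested genes, and the median was 0.07. Sesn3 was at 0.24, Foxo1 at 0.04, and Txnip, which restrains glucose uptake, at 0.08. Gadd45g was the 1 call among 18 tested Gadd45 and p53-linked genes. The median there was 0.00, and its relatives Gadd45a (-0.04) and Gadd45b were not higher. The p53 targets Cdkn1a, Mdm2 (-0.07) and Bbc3 (-0.33) were not called.

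Genes of glucose and lipid handling in adipocytes showed no call at 1 h. Among 22 tested genes of glucose uptake and glycolysis, none passed and none had an unadjusted p under 0.05, with a median of -0.03. Slc2a4 ran at a mean of 192 CPM in WT and 216 CPM in TG, at 0.16 (SE 0.12), and the ubiquitous transporter Slc2a1 was at 0.09 (SE 0.20). The same held for 25 genes of insulin signalling (median 0.05) and 23 of oxidative phosphorylation (median -0.03). Among 20 tested genes of lipolysis and the lipid droplet (median 0.00) none passed. Pnpla2, the first lipase of triglyceride breakdown, was at -0.06 (SE 0.14), and Hcar2, a receptor that restrains lipolysis, was at -0.50 (unadjusted p = 0.0159). Lipogenesis (20 genes, median -0.04), fatty acid oxidation (17, median 0.01) and adipokines (15, median 0.01) had no calls, with Lep at 0.03 (SE 0.16) and Adipoq at 0.07 (SE 0.14). Of 19 tested genes of cAMP and adrenergic response none passed (median 0.04). Sik1, a cAMP-induced kinase, was at 0.62, Crem at -0.35 and the adrenergic receptor Adrb3 at -0.11. Adrb3 was at -2.20 at 6 h.

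Stim1, the calcium sensor of the endoplasmic reticulum, ran from 88.7 to 123 CPM in WT and from 119 to 198 CPM in TG. It was at 0.46 (SE 0.10, edgeR adjusted p = 0.0668) and passed in DESeq2 (0.00331). It was 1.38 higher at 6 h (SE 0.07, edgeR adjusted p = 1.52e-09), an interaction of -0.93 (1.99e-05). Tnrc18, a chromatin-associated protein, was at 0.60 at 1 h (SE 0.13, edgeR adjusted p = 0.0956) and fell by 0.82 at 6 h (SE 0.09, 1.11e-05), an interaction of 1.42 (1.18e-06). Interferon response genes (21 tested, none called) had a median of 0.19 with 18 above 0. This median was 0.02 over replicates 1 to 6 and 0.05 without the libraries high in liver transcripts. At 6 h it was -0.57 with 10 members called lower, where 14.4% of all genes were called in either direction. The temperature-responsive RNA-binding proteins Cirbp (0.28, SE 0.17) and Rbm3 (-0.21, SE 0.17) were not called. The adipocyte identity, clock, heat shock, hypoxia, unfolded protein, NF-kB, growth hormone and cholesterol lists had medians between -0.11 and 0.12, and Ddit4, which the hypoxia list also holds, was their 1 call.

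**Figure D4:**
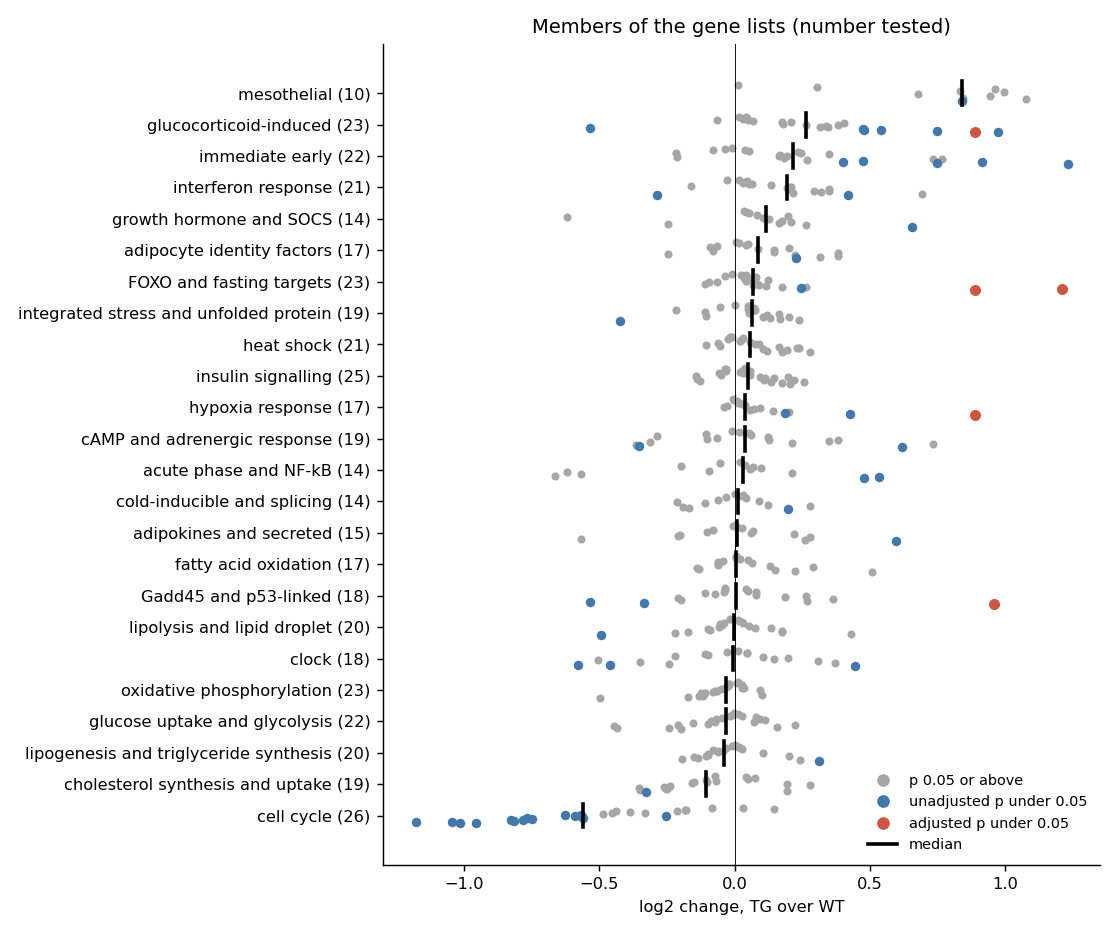
Log2 change (TG over WT) of every tested member of each gene list, with the number tested in brackets and the median as a black bar. Members with an adjusted p under 0.05 are red and those with an unadjusted p under 0.05 blue. The cell cycle list lies to the left of 0 for 24 of 26 members, and the mesothelial list lies to the right for 10 of 10.

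Genes of the cell cycle lay lower in TG at 1 h, although none passed in edgeR. The list was chosen after the values were seen, so its counts are a description. Of 26 tested members 15 were lower at an unadjusted p under 0.05, against 2.2% of all genes, 2 were above 0, and the median was -0.56. Cdca8, a protein of the chromosomal passenger complex, had a mean of 12.8 CPM in WT and 5.69 CPM in TG, at -1.18 (SE 0.26, edgeR adjusted p = 0.109, DESeq2 0.0495). The histone chaperone Asf1b was at -1.01 (0.0668 and 0.0305) and cyclin A, Ccna2, at -0.96 (0.0956 and 0.0495). Top2a, the topoisomerase of dividing cells, ran from 20.3 to 117 CPM in WT and from 25.7 to 52.1 CPM in TG (-0.82). The summed level of the list ran from 327 to 870 CPM in WT (median 583) and from 338 to 490 CPM in TG (median 429), so the groups overlapped. Without WT library 8, the lowest WT library in each of them, Top2a, Asf1b, Cdca8 and Ccna2 passed in edgeR. Asf1b, Cdca8 and Ccna2 passed in only 1 of the 18 runs that left out 1 library, which was this one. At 6 h the list's median was 0.40, with 1 of 26 members called higher and none lower, where 14.4% of all genes were called in either direction. Among the named members the interaction passed for Ccna2 (-1.68), Plk1 (-1.61), Kif15 (-1.64) and Cdca8 (-1.38). The interaction reuses the 1 h values by which the list was chosen, so these passes are a description too.

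Transcripts of other organs and cell types varied between single libraries. The sum of 8 liver transcripts, among them albumin, had a median of 57.5 CPM over all 18 libraries and was above 5 times that in WT libraries 5, 6, 7 and 8 and TG library 3, where it reached 2321 CPM (WT 7) and 9664 CPM (TG 3). The sum of Lrp2 and Cldn10, which mark duct epithelium, had a median of 16.0 CPM and was above 5 times that in WT libraries 2 and 9 and TG libraries 4 and 6, at 119 to 317 CPM. Neither sum differed between genotypes beyond its spread. The liver sum was at a mean log2(CPM + 1) of 7.51 in WT and 6.48 in TG (exact permutation test over 48620 assignments, two-sided, p = 0.367, adjusted over the 2 sums 0.519), and the duct sum at 4.14 and 4.80 (exact p = 0.519, adjusted 0.519). The direction of the liver difference depended on the scale. On the linear scale its mean was higher in TG (1121 against 442 CPM), which rests on TG library 3. The medians were 175 CPM in WT and 52.8 CPM in TG. As covariates, the liver sum had 114 genes rising with it past the threshold and none falling, and the duct sum 566 rising and 157 falling.

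Germ cell transcripts summed to 3113 CPM in WT library 9 and to 39.1 to 135 CPM in the other 17, and that library also had the lowest adipocyte sum. Of the germ cell list, Odf2 alone had a mean of 52.1 CPM in TG, while Prm1 had no count in 13 of the 18 libraries. Mesothelial markers, which mark the lining of the depot, were above 0 in 10 of 10 tested members (median 0.84), none called and 1 with an unadjusted p under 0.05. Their sum ran from 96.9 to 489 CPM in WT (median 189) and from 139 to 733 CPM in TG (median 335), highest in TG libraries 8 and 9. Fibroblast markers summed to 13053 CPM in TG library 9 and to 4842 to 7769 CPM in the other 17, with 10 of 11 tested members above 0 and none called. Macrophage (12 tested, median -0.01) and endothelial (11, median 0.09) markers had no calls. Of 13 exocrine pancreas markers 4 had a count, and Prss1, Cela2a and Pnlip had none. Cela1, of the same list, passed the count filter at a mean of 34.0 CPM in both genotypes. The part of these cell types in the genotype differences was not tested beyond the runs that follow.

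**Figure D5:**
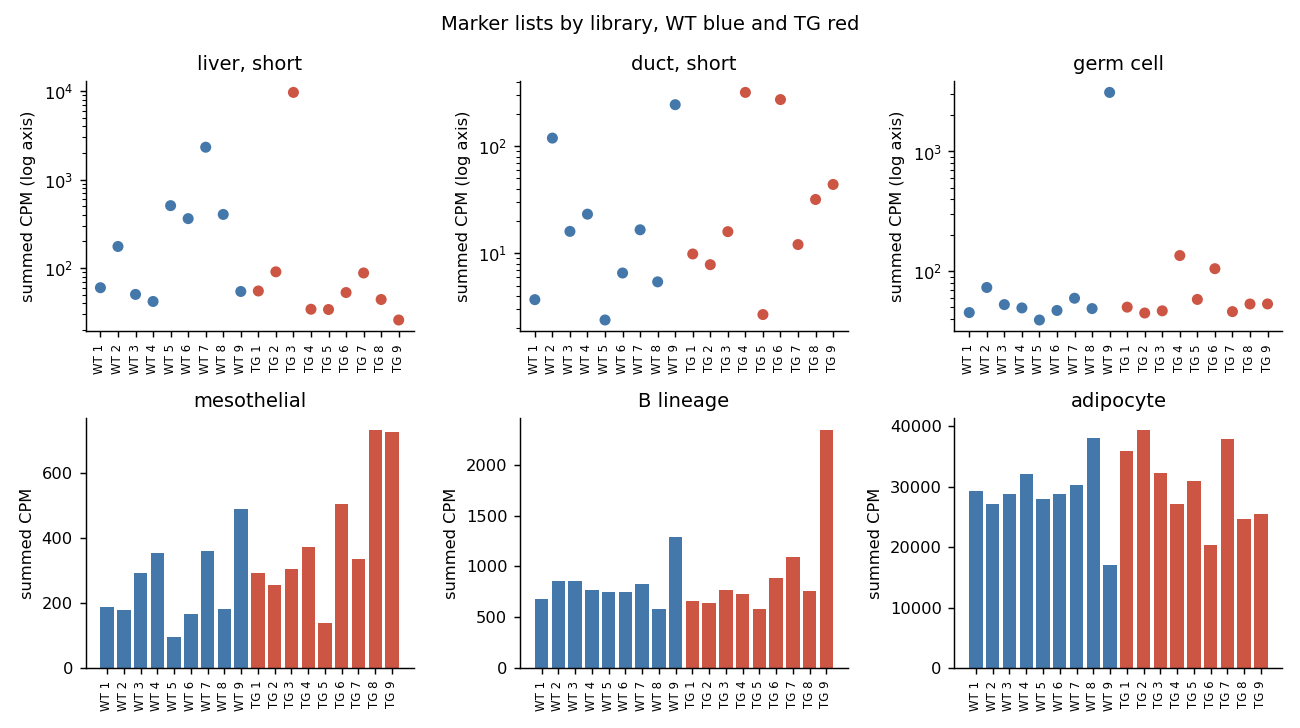
Summed CPM of marker lists in each library (WT blue, TG red), as points on log axes for liver, duct and germ cell transcripts and as bars from 0 for mesothelial, B lineage and adipocyte markers. High liver sums stand in WT 5 to 8 and TG 3, high duct sums in WT 2, WT 9, TG 4 and TG 6, and the high germ cell sum in WT 9.

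Without the 5 libraries high in liver transcripts (5 WT and 8 TG left), 2 genes were called, Txnl1 and Wdr7. Without the 4 high in duct transcripts (7 and 7 left) 8 were called, of which 7 were shared with the full set. Gadd45g was lost and Stim1 gained. Without either (3 WT and 6 TG left), Txnl1 alone was called. With both sums as covariates and all libraries kept, 17 genes were called, among them all 8. The Ddit4 change ran from 0.74 to 1.03, that of Depp1 from 1.17 to 1.42 and that of Gadd45g from 0.95 to 1.39 over the 13 alternatives that did not leave out a single library. With the replicate number as a block, the calls of Depp1, 4632418H02Rik, Gm44829 and Gm47121 were lost. With the remainder of the library number on division by 8 as a factor, and over replicates 1 to 6, those of Gadd45g, Depp1, 4632418H02Rik, Gm44829 and Gm47121 were lost, leaving Txnl1, Wdr7 and Ddit4. Remainder 3 held replicates 1 to 6 of both genotypes, remainder 2 held WT 7 to 9 with TG 8, and remainder 4 held only TG 7 and TG 9. With the factor TG 7 and TG 9 thus did not inform the contrast, and these runs were largely the same check. Leaving out 1 library at a time kept the calls of Txnl1, Wdr7 and Ddit4 in all 18 runs. The calls of 4632418H02Rik and Gm44829 were lost without WT 1, WT 2, WT 7 or TG 3 (edgeR adjusted p up to 0.0555 and 0.0564). Those of Gadd45g (up to 0.0920) and Depp1 (up to 0.100) were lost without any 1 of WT 1, 2, 4, 5, 7 and 9 and TG 1, 3, 5 and 7, and also without WT 6 for Gadd45g and TG 2 for Depp1. The call of Gm47121 (up to 0.132) was lost without any 1 of WT 1, 2, 3, 4, 5, 7 and 9 and TG 1, 2, 3, 5, 7 and 9.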

How the data were processed

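Gene counts came from 3′ mRNA sequencing (QuantSeq FWD) of total RNA from perigonadal fat. The authors deposited raw counts, which are whole numbers with no scaling and with totals that differ between libraries. The submitters' processing notes name STAR 2.7.10, cutadapt 1.18, UMI-tools 1.1.2 and bcl2fastq 2.20.0.422. The counting program, its strand setting, whether molecular identifiers were collapsed, and which of the listed builds (GRCm39, GRCm38) the table used are not given in the sources used here. Per the labels' protocols the 1 h libraries used a second strand module with molecular identifiers and the 6 h libraries the standard kit. On average 65.3% of a library's counts were in gene rows, 24.1% in no feature and 10.1% not aligned uniquely. The 5 rows that name no gene were left out. Symbols and positions came from GENCODE vM21 (GRCm38).

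Samples were grouped by title. TG was compared with WT in edgeR 4.0.16 (R 4.3.3) after TMM scaling and a filterByExpr filter by genotype, with a robust fit, the quasi-likelihood test and Benjamini-Hochberg adjustment at 0.05. DESeq2 1.42.0 was an alternative. The 1 h and 6 h sets were joined for 1 interaction fit, and the other sets were also fitted on their own. Marker sums used log2(CPM + 1) and exact permutation in scipy 1.17.1. The fit was also run on simulated counts with known changes, and how many it recovered is not given here. Alternatives were other scalings and filters, a replicate block, covariates, and leaving out libraries. The 95% intervals of log2 changes rest on the spread between libraries, and the limit of 3 counts covers counting error only.

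Genes named were all past the threshold, the 12 next smallest p in each direction (predicted models and means under 5 CPM left out), the 3 members of each list with the smallest p, and a fixed set (Gfral, Gdf15, Ddit4, Depp1, Gadd45g, Txnl1, Wdr7, Fkbp5, Egr1, Fos, Slc2a4, Slc2a1, Ucp1, Lep, Adipoq, Pnpla2, Cirbp and Rbm3). Not every gene so picked is given by name in the text, and 1 is not reported here. Gdf15 was below the filter, with 101 counts in WT and 177 in TG. Host genes, models within them and other list members were named after their values were seen. The comparison, the lists and the tests were chosen with earlier results of these data known.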

Additional observations from a re-analysis of the deposited data

Results flagged for a closer look

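A library was listed where its gap to the nearest other library of its genotype, divided by the range of the 9, was above 0.493. Chance lists about 1 in 20 groups of normally distributed values, and 56 groups were checked. Several marker sums were strongly skewed and some lists share members, so the rate among these groups is not known. TG library 2 was high in Gadd45g (130 CPM). Liver transcripts of the short list were high in WT 7 (2321 CPM) and TG 3 (9664 CPM), and those of the longer list in the same libraries (2686 and 9473 CPM), as were intestine markers (375 and 1078 CPM), a list that holds Fabp1, which liver also makes. WT 9 was high in the short duct list (244 CPM), in germ cell (3113 CPM), B lineage (1294 CPM) and neutrophil and mast cell markers (168 CPM), and low in endothelial markers (1095 CPM). TG 9 was high in B lineage (2346 CPM), macrophage (2864 CPM) and fibroblast markers (13053 CPM), and WT 6 in T and NK cell markers (120 CPM). The part of these libraries in the genotype comparison was not tested beyond leaving them out.

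The genotype difference at 1 h minus that at 6 h, on the log2 scale, passed the edgeR interaction test for 28 of the 99 named genes, against 4.21% of all genes tested. Kit and time cannot be told apart in it, and the named genes were chosen partly by their 1 h change. It was negative for Fkbp5 (-2.73), AC154912.3 (-2.09), Ccna2 (-1.68), Kif15 (-1.64), Cebpd (-1.63), Plk1 (-1.61), Ddit4 (-1.55), Gadd45g (-1.40), Cdca8 (-1.38), Zbtb16 (-1.38), Snrk (-1.15), Mir17hg (-1.001), Rgs2 (-0.99), Stim1 (-0.93), Pdk2 (-0.83), Thap2 (-0.63) and Slc3a2 (-0.53). It was positive for Egr1 (1.96), Hcar1 (1.72), Tnrc18 (1.42), Ier2 (1.21), Mlxipl (0.86), Rpl35 (0.84), Gm44829 (0.80), Lpar4 (0.73), Irf1 (0.67), Itpr1 (0.60) and Agap1 (0.55). Outside these genes, Cdkn1a (-2.03), Tsc22d3 (-1.61) and Mertk (-1.33), picked for their values, also passed.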

How the results depend on the processing

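The 8 calls became 23 with DESeq2, 17 with the liver and duct sums as covariates, 5 without a filter on low counts (Gadd45g, Depp1 and Gm47121 lost), 3 with the remainder of the library number on division by 8 as a factor, 3 over replicates 1 to 6 only, 2 without the libraries high in liver transcripts and 1 without those high in liver or duct transcripts. Leaving out 1 library at a time gave 3 to 12 calls. With the replicate number as a block there were 5 calls, 4 of them shared with the unblocked fit and Egr1 new, while Depp1, 4632418H02Rik, Gm44829 and Gm47121 were lost. Same-numbered libraries did not deviate together (correlations from -0.18 to 0.37 over the 9 numbers), so the numbers were not taken as pairs. Fewer libraries were fitted in the runs that leave some out, and with the remainder as a factor TG 7 and TG 9 did not inform the contrast. The cause of the other shifts was not tested. DESeq2 size factors, a minimum mean of 5 CPM, leaving out the libraries high in duct transcripts, leaving out liver and epididymis genes and a fit without robust estimation gave 8, 7, 8, 8 and 12. The interaction gave 548 calls, and 542 to 774 under its alternatives. The liver sum was lower in TG by 1.04 on the log2 scale, shown as -1.04, and higher with a longer list (0.20) and on the linear scale (679 CPM). The linear difference rests on TG library 3. The longer list was mostly Trf and Cyp2e1 (means of 966 and 332 CPM in WT, against a summed median of 1414 CPM).

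Over 3069 pairs of a named gene and an alternative, 25 had another sign than the main value, in 7 genes that were not called in either. Lep was at -0.00753 with the remainder as a factor, -0.0835 over replicates 1 to 6, -0.00350 without the liver-high libraries, -0.0492 without the duct-high and -0.215 without either. Pnpla2 was at 0.0859 over replicates 1 to 6, 0.0551 with the covariates, 0.0786 without the liver-high libraries and 0.167 without either. Pdk2 was at 0.0195, 0.231 and 0.00452 with the remainder, over replicates 1 to 6 and without either. Fos was at -0.0538 without the liver-high libraries and -0.0736 without either, Slc2a1 at -0.0546 with the covariates, Hcar1 at 0.0187 and Hsp90b1 at -0.0202 without either. Leaving out 1 library gave -0.0281 to 0.109 for Lep and -0.0329 to 0.236 for Slc2a1. The level of 3 counts, at up to 3.07 CPM of the unscaled gene-row total, was not the limit of testing. At this depth the count filter set which genes were tested, and most genes under that level were left out.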
